A study of Mus musculus with 10 samples.

Results

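The 10 genes described here encode core subunits of the Polycomb repressive complexes: Phc1, Phc2, Phc3, Scmh1, Bmi1, Ring1 and Rnf2 of complex PRC1, and Ezh2, Eed and Suz12 of complex PRC2. They were taken by exact symbol from the 36806 rows of each of 4 tables of RNA-seq expression, and all 10 were found in every table with the authors' test done and with at least 1 FPKM. FPKM counts sequenced fragments per length of transcript and per size of the library, so levels of different genes can be set side by side. The material came from male C57BL/6 littermates that were Ago4+/+ or Ago4-/-. Ago4 encodes an Argonaute protein, which binds small RNAs, and the labels name no promoter or cell type that limits the deletion. Libraries of mRNA were made at the age of 70 days from pachytene cells and from leptotene/zygotene cells, and from whole testis at the ages of 3 and 8 days, with 1 library of each genotype for each of these materials. No label gives the number of animals in a library, and 2 libraries of small RNA were not analysed here.

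The tables name their conditions only as the first and the second, and no label or header ties either to a genotype. Every ratio below is the second condition relative to the first within its own table, the order may differ between tables, and no genotype is attached to any direction. With 1 library for each genotype and material there is no replicate error. The error given with a log2 ratio is the one implied by the authors' test, and the authors' q-values set 1 library against 1 other rather than genotype against genotype. Below, called means a q-value of at most 0.05 in the authors' deposited table. No age is tied to the pre-meiotic table, although the day 8 testis is the only mRNA material that the names of the other tables leave over.

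Ago4 itself, listed as Eif2c4 on chromosome 4 at 126166785 to 126210716 (as the table gives it, counted from 1, build not given in the sources used here), had 0.897 and 1.23 FPKM in the first and the second condition at day 3. Its pre-meiotic levels were 2.53 and 3.34 FPKM, followed by 1.67 and 3.26 FPKM at leptotene/zygotene, and 4.37 and 12.1 FPKM at pachytene. The level was higher in the second condition of each table, and the authors' deposited tables call it at leptotene/zygotene (q = 0.0385) and pachytene (q = 0.000147). No label says which part of the gene was removed, and 2 other gene models, Gm12934 and Gm12935, carry the same locus, so these levels do not identify a genotype. Marker genes were compared with the labels before the results. The leptotene/zygotene libraries held 8179 and 9510 FPKM of Prm1, which packages DNA in spermatids, against 1074 and 1712 FPKM in the pachytene libraries, and 15006 and 17166 FPKM of the spermatid gene Tnp1, against 2258 and 2712 FPKM. Dmc1, a recombinase of early prophase, was at 3.02 and 3.73 FPKM, between the pachytene values of 1.75 and 4.02 FPKM. Sycp3, a synaptonemal complex protein, was at 72.0 and 56.6 FPKM, below the pachytene values of 191 and 205 FPKM. The 8 markers of leptotene and zygotene summed to 188 and 172 FPKM there, below the 404 and 377 FPKM of the pachytene libraries. Of these markers Tex15 went the other way, at 49.7 and 53.5 FPKM there against 35.3 and 12.1 FPKM at pachytene. So did Prdm9, at 4.90 and 4.90 FPKM against 3.18 and 4.83 FPKM. Most of these values go against the label, so that table is named here by its label only. The stage comparisons are also given without it. The pachytene libraries held spermatid RNA as well. There the 8 spermatid markers summed to 7568 and 9671 FPKM, beside 9016 and 8908 FPKM for the 9 pachytene markers. Below, spermatocyte libraries or tables are those labelled leptotene/zygotene or pachytene, whatever cells they held.

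Polycomb proteins keep genes silent through marks on histones. PRC2, built on Suz12 and Eed, methylates lysine 27 of histone H3 through Ezh2, and PRC1 ubiquitinates histone H2A through Ring1 or Rnf2. In the canonical form of PRC1 the ubiquitin ligase is joined by Bmi1 or its relative Pcgf2, by a chromobox protein that reads the PRC2 mark, and by a polyhomeotic protein of the Phc group. Polycomb proteins are known to hold developmental genes silent in the male germline, and Scmh1 has been linked to the loss of Polycomb proteins from the sex chromosomes of pachytene cells.

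At day 3, 7 of the 10 members had a lower level in the second condition, against 46.7% of all genes at or above 1 FPKM. The same count was 8 in the pre-meiotic libraries, against 51.2%, 8 at leptotene/zygotene, against 57.4%, and 6 at pachytene, against 46.6%. These counts are not added across tables, since the order of the conditions may differ. The members' median log2 ratio was -0.23 at day 3, -0.08 in the pre-meiotic table, -0.14 at leptotene/zygotene and -0.26 at pachytene. Over all genes at or above 1 FPKM the medians were 0.05, -0.01, -0.07 and 0.03. At day 3 the authors' deposited table calls 4 of the 10 members lower, where 9.97% of all tested genes, and 13.8% of those at or above 10 FPKM, are called lower. No member is called higher there, against 4.8% of all genes. Among pre-meiotic libraries 1 member is called lower, against 0.68% of all genes, and 0 higher, against 0.471%. At leptotene/zygotene 1 member is called lower, against 1.33%, and 0 higher, against 0.804%, and at pachytene 1 is called lower, against 1.01%, and 0 higher, against 0.614%. With 10 members, 1 call is the smallest count above 0, so the counts outside day 3 rest on Suz12 and Phc2 alone.

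**Figure D1:**
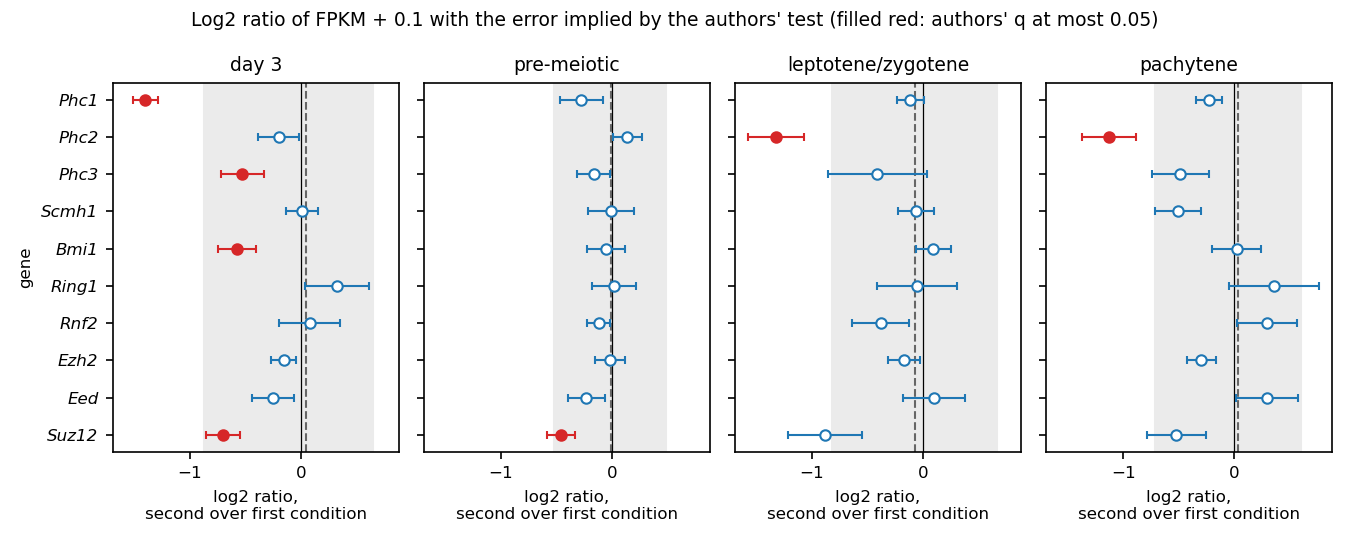
Log2 ratio of FPKM + 0.1 in the second condition relative to the first (horizontal axis) for each of the 10 genes (vertical axis) in the 4 tables. Bars are the error implied by the authors' test, filled red points have an authors' q of at most 0.05, the dashed line is the median and the grey band the 10th to 90th percentile of all genes at or above 1 FPKM. Phc1 at day 3 (-1.40) and Phc2 at leptotene/zygotene (-1.32) and pachytene (-1.13) lie outside the band, and Suz12 at leptotene/zygotene (-0.88) lies just outside it.

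By size, 2 members were at least 1.5-fold lower at day 3, against 17.7% of genes at or above 1 FPKM, and 0 were as much higher, against 13.1%. Among pre-meiotic libraries none passed this fold in either direction, against 8.42% lower and 8.08% higher. At leptotene/zygotene 2 were lower, against 15.2%, and 0 higher, against 11.3%, and at pachytene 1 was lower, against 13%, and 0 higher, against 10.3%. Read against these shares, 1 or 2 of 10 is near the background. The day 3 count is 4 once ratios are centred on the median of the table, since Phc3 and Bmi1 lie close to the threshold.

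Phc1 (ENSMUSG00000040669, chromosome 6 at 122267749 to 122290579), one of the polyhomeotic proteins whose SAM domains chain PRC1 complexes together, gave the widest difference of any member. At day 3 it had 62.7 FPKM in the first condition and 23.6 FPKM in the second, a ratio of 2.65-fold lower (log2 ratio -1.40 ± 0.11, implied error), and the authors' deposited table lists its q as 0. The pre-meiotic levels were 49.6 and 41.0 FPKM, those at leptotene/zygotene 202 and 187 FPKM, and those at pachytene 158 and 135 FPKM. The later 3 differences were between -0.11 and -0.27 on the log2 scale and were not called. In whole testis, fewer cells of a type and less RNA per cell cannot be told apart.

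Other genes moved with Phc1 at day 3. Of 8 markers of undifferentiated spermatogonia, 5 are called lower in the second condition in the authors' deposited table, and the 8 summed to 96.0 and 49.4 FPKM. Gfra1, the receptor for the niche factor GDNF, had 10.9 and 3.96 FPKM, and Etv5, a transcription factor of these cells, had 45.6 and 19.9 FPKM. Id4 was at 7.73 and 8.97 FPKM, so not every marker was lower. Of 6 markers of differentiating spermatogonia 2 are called lower, among them Kit at 9.63 and 4.16 FPKM, and of 9 Sertoli markers 1 is called lower, with sums of 3357 and 3784 FPKM. Of 8 leptotene and zygotene markers 3, and of 9 pachytene markers 2, are called lower as well. Some of the called markers were under 1 FPKM in both conditions. These were Meiob (0.837 and 0.306 FPKM), Piwil1 (0.858 and 0.368 FPKM) and, among the undifferentiated list, Nanos2 (0.519 and 0.133 FPKM). Of the 9 pachytene markers, 5 did not reach 1 FPKM.

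Markers of cells outside the tubule also differed at day 3, in both directions. The authors' deposited table calls 2 of 6 endothelial markers lower, Pecam1 at 25.9 and 17.7 FPKM and the receptor Tek at 8.22 and 3.47 FPKM, and the list had a median log2 ratio of -0.47. Of 7 Leydig markers the steroid genes Star (53.2 and 35.3 FPKM) and Cyp17a1 (217 and 73.8 FPKM) are called lower and the hormone Insl3 (172 and 298 FPKM) higher. Of 6 myoid markers Myh11 is called lower, at 69.8 and 28.1 FPKM, and Des higher, at 41.7 and 61.7 FPKM, and of 6 stroma markers the collagen Col1a1 is called lower, at 1759 and 1037 FPKM. The macrophage genes Cd68 (8.15 and 14.5 FPKM) and Lyz2 (30.1 and 58.3 FPKM) and the globin Hbb-b1 (359 and 516 FPKM) are called higher. The part of cell content in the day 3 values was not tested.

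The day 3 ratios also moved with the length of the locus. Over genes at or above 1 FPKM sorted into 4 equal bins by the span of the locus, the median log2 ratio was 0.33 in the shortest bin, then 0.13, then -0.09, and -0.25 in the longest. The same 4 medians lay between -0.022 and -0.0032 in the pre-meiotic table, between -0.08 and -0.07 at leptotene/zygotene and between -0.02 and 0.07 at pachytene. Phc1 spans 22.8 kb and Bmi1 9.61 kb, both in the bin with a median of 0.13 at day 3. Suz12, at 41.0 kb, and Phc3, at 70.1 kb, are in the bin with a median of -0.09. Phc3 lies at the edge of its bin, which ends at 70.2 kb. These 4 members are named because they are called lower at day 3, so ratios of -1.40, -0.58, -0.70 and -0.53 below the bin medians follow from that choice. Of the members not called, Eed (-0.25, bin median 0.13) and Ezh2 (-0.16, bin median -0.09) were also below. Rnf2 (0.08, bin median -0.09) was above, as were Scmh1 (0.01) and Phc2 (-0.20), both in the bin with a median of -0.25. Ring1, at 3.89 kb the shortest locus of the 10, had a log2 ratio of 0.32 in the bin with a median of 0.33. The part of locus length in these ratios was not tested.

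Phc2 (ENSMUSG00000028796, chromosome 4 at 128331982 to 128430125), the second polyhomeotic gene, differed at the later stages. It had 69.8 and 60.8 FPKM at day 3 and 47.1 and 52.0 FPKM in the pre-meiotic table, and neither difference was called. At leptotene/zygotene it had 40.2 FPKM in the first condition and 16.0 FPKM in the second, 2.51-fold lower (log2 ratio -1.32 ± 0.25), with q = 3.98e-05 in the authors' deposited table. At pachytene it had 38.3 and 17.5 FPKM, 2.18-fold lower (-1.13 ± 0.24), with q = 0.000793 in the authors' deposited table. The pachytene table was normalized and tested on its own, so its levels and its call do not depend on the leptotene/zygotene table. Phc2 is the member nearest to Ago4, 2.12 Mb away in the coordinates of the tables.

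Most markers of myoid, endothelial, stroma and blood cells moved the opposite way to Phc2 in the same libraries. Macrophage markers were split, and Leydig markers did not follow. The 6 peritubular myoid markers summed to 9.28 and 43.8 FPKM at leptotene/zygotene and to 14.9 and 32.4 FPKM at pachytene, and 5 and 3 of them are called higher in the second condition in the authors' deposited tables. The 6 erythrocyte markers, mostly globins, summed to 39.7 and 336 FPKM at leptotene/zygotene, with 4 called higher, and to 6.53 and 17.2 FPKM at pachytene, with 0 called. The 6 endothelial markers summed to 7.10 and 11.3 FPKM and then to 5.69 and 12.6 FPKM, with 1 and 3 called higher, and the 6 stroma markers to 8.46 and 21.7 FPKM and then to 2.67 and 9.63 FPKM, with 1 called in each. Of 6 macrophage markers 2 are called higher at leptotene/zygotene and 1 at pachytene, led by H2-Ab1, a class II antigen, at 6.90 and 41.5 FPKM and then 3.35 and 43.5 FPKM. The macrophage genes Lyz2 and Cd68 are listed at 0 in the first condition at leptotene/zygotene. Cd14 was lower in the second condition, at 2.27 and 1.35 FPKM and then 0.704 and 0.269 FPKM. Csf1r was lower too, at 0.699 and 0.647 FPKM and then 0.396 and 0.189 FPKM, as was Lyz2 at pachytene, at 0.478 and 0.414 FPKM. At pachytene 4 of the 6 macrophage markers were under 1 FPKM. The 7 Leydig markers summed to 13.2 and 13.9 FPKM at leptotene/zygotene and to 44.7 and 40.1 FPKM at pachytene, and the 9 Sertoli markers found to 69.2 and 50.0 FPKM and then to 119.4 and 134.6 FPKM, with 0 called in either list. The spermatid markers summed to 48677 and 57749 FPKM at leptotene/zygotene and to 7568 and 9671 FPKM at pachytene, with 0 of 8 called. Some germ cell markers moved the same way as Phc2. Of 8 leptotene and zygotene markers 2 are called lower at pachytene, Tex15 (35.3 and 12.1 FPKM) and Sycp1 (63.5 and 31.2 FPKM), while 6 had ratios above 0. Of 9 pachytene markers 1 is called lower at leptotene/zygotene, Piwil1 (37.2 and 24.8 FPKM), while 4 had ratios above 0. The part of these cells in the Phc2 values was not tested.

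RefSeq lists 3 start sites for Phc2, and the 250 bases before each are printed because the tables sum them into 1 level and cannot say which transcripts made the difference. Windows are from GRCm38.p6, which may not be the build of the tables. Capitals mark the GC box, GGGCGG or its reverse complement CCGCCC.
Phc2 start 1, chr4:128654452-128654701, plus strand: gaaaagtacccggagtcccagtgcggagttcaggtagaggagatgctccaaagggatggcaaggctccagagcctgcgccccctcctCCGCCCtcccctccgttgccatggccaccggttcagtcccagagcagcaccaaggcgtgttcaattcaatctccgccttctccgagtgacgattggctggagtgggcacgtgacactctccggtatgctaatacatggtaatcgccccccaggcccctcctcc
Phc2 start 2, chr4:128688488-128688737, plus strand: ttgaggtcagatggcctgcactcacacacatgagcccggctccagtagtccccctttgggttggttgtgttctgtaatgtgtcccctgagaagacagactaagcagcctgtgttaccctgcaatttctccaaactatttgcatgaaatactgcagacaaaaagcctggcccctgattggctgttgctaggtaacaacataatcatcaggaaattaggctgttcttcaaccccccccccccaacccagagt
Phc2 start 3, chr4:128727321-128727570, plus strand: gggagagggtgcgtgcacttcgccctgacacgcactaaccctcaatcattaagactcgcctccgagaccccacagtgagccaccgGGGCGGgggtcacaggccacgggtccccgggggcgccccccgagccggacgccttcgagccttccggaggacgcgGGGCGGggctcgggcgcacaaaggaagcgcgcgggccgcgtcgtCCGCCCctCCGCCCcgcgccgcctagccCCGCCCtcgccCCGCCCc
The windows held 13, 1 and 34 CpG, and 1, 0 and 6 GC boxes, in that order. CCAAT was found in the first and the second of them and not in the third.

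Phc3 (ENSMUSG00000037652, chromosome 3 at 30798217 to 30868337), the third polyhomeotic gene, was the lowest of the group. It had 11.0 and 7.58 FPKM at day 3 (log2 ratio -0.53 ± 0.19), with q = 0.0418 in the authors' deposited table. It had 17.0 and 15.1 FPKM in the pre-meiotic table, 2.75 and 2.05 FPKM at leptotene/zygotene, and 4.35 and 3.08 FPKM at pachytene, none of them called. The second value of each pair was the lower one, although the order of the conditions may differ between tables.

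Within the polyhomeotic group the share of each gene is free of the scaling between tables, since it is taken within 1 condition. Phc1 made up 43.7% and 25.7% of the summed FPKM of the 3 genes at day 3 and 43.6% and 37.9% in the pre-meiotic table. It made up 82.5% and 91.2% at leptotene/zygotene and 78.8% and 86.8% at pachytene. The 4 libraries labelled as spermatocytes thus lay above the 4 testis libraries. Phc3 went from 7.64% to 14.9% of the sum in the testis libraries to 1.0% to 2.2% in the spermatocyte libraries.

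Scmh1 (ENSMUSG00000000085, chromosome 4 at 120077886 to 120202804), a relative of the fly gene Sex comb on midleg that binds polyhomeotic proteins through its SAM domain, was called in no table. It had 74.2 and 74.7 FPKM at day 3, 64.8 and 64.5 FPKM in the pre-meiotic table and 151 and 145 FPKM at leptotene/zygotene. At pachytene it had 200 and 141 FPKM (log2 ratio -0.50 ± 0.21), with q = 0.247 in the authors' deposited table. Scmh1 also lies on chromosome 4, 5.96 Mb from Ago4.

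Bmi1 (ENSMUSG00000026739, chromosome 2 at 18598645 to 18608256), the PCGF subunit known for keeping stem cells dividing through repression of the Cdkn2a locus, was called in the day 3 table alone. It had 29.1 and 19.5 FPKM there, lower in the second condition (log2 ratio -0.58 ± 0.17), with q = 0.0076 in the authors' deposited table. Its levels in the pre-meiotic libraries were 43.6 and 42 FPKM, those at leptotene/zygotene 123 and 131 FPKM, and those at pachytene 52.3 and 53.3 FPKM. These later pairs differed by at most 0.09 on the log2 scale, less than their implied errors of 0.16 to 0.22. Whether the ratio at day 3 differs from that in the other tables was not tested.

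Bmi1 and Pcgf2 can take the same place in PRC1, and their balance differed between the materials. Bmi1 was 33.4% and 21.0% of their summed FPKM at day 3 and 55.6% and 51.6% in the pre-meiotic table. It was 99.0% and 99.2% at leptotene/zygotene and 97.8% and 98.1% at pachytene. Pcgf2 had 58.2 and 73.0 FPKM at day 3, 34.8 and 39.4 FPKM in the pre-meiotic table, and between 1.04 and 1.19 FPKM in the 4 spermatocyte libraries. Sertoli markers moved the same way, from sums of 2828 to 3784 FPKM in the testis libraries to 50 to 135 FPKM in the spermatocyte libraries, and their part in the Pcgf2 levels was not tested.

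**Figure D2:**
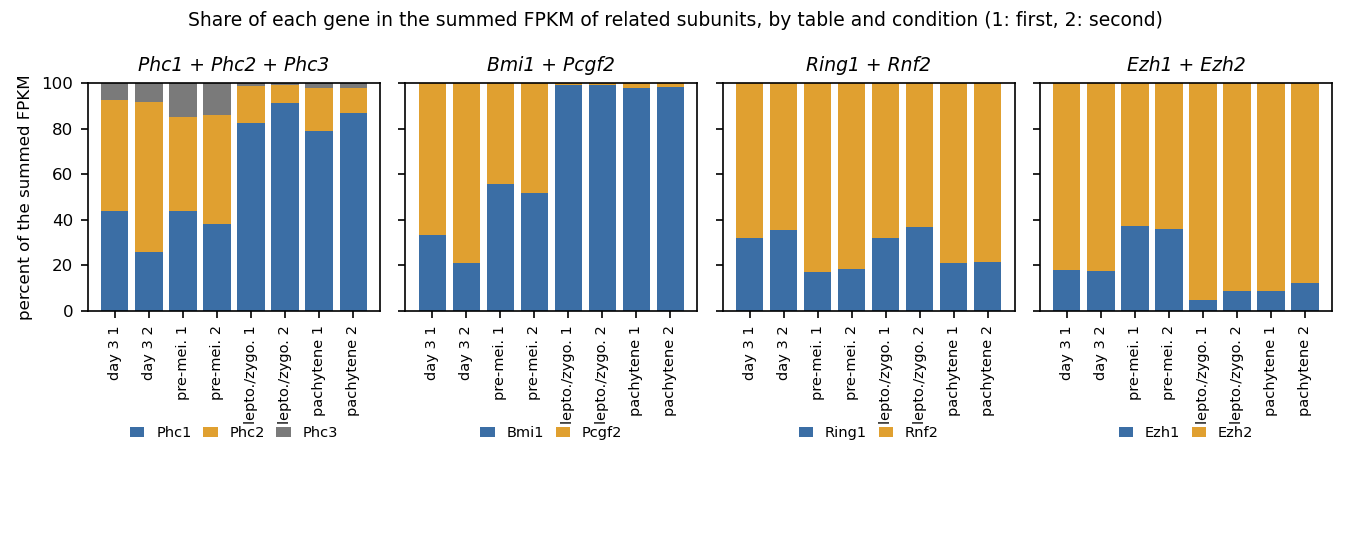
Percent of the summed FPKM (vertical axis) taken by each gene of 4 groups of related subunits in the first (1) and second (2) condition of each table (horizontal axis). Phc1 and Bmi1 take 78.8% to 91.2% and 97.8% to 99.2% of their groups in the 4 libraries labelled as spermatocytes, more than in any testis library. Rnf2 and Ezh2 are the larger part in all 8.

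Ring1 (ENSMUSG00000024325, chromosome 17 at 34157739 to 34161625) and Rnf2 (ENSMUSG00000026484, chromosome 1 at 153316536 to 153347953), the alternative ubiquitin ligases of PRC1, were called in no table. Ring1 had 18.5 and 23.2 FPKM at day 3, 9.96 and 10.1 FPKM in the pre-meiotic table, 4.21 and 4.04 FPKM at leptotene/zygotene and 6.01 and 7.75 FPKM at pachytene. Its log2 ratios of 0.32 at day 3 and 0.36 at pachytene were near their implied errors of 0.29 and 0.41. Rnf2 had 39.7 and 42 FPKM at day 3, 48.3 and 44.5 FPKM in the pre-meiotic table, 9.01 and 6.90 FPKM at leptotene/zygotene and 23.0 and 28.2 FPKM at pachytene. Rnf2 was the more abundant ligase in every library, with 63.1% to 82.9% of their sum.

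Ezh2 (ENSMUSG00000029687, chromosome 6 at 47480273 to 47545340), the methyltransferase of PRC2, was called in no table. It had 99.6 and 89.4 FPKM at day 3, 60.7 and 60.0 FPKM in the pre-meiotic table, 63.1 and 56.2 FPKM at leptotene/zygotene and 85.6 and 69.8 FPKM at pachytene. Its ratios lay between -0.02 and -0.29 on the log2 scale. Ezh2 exceeded its relative Ezh1, a weaker enzyme, in each library, with 82.0% and 82.7% of their sum at day 3, 62.6% and 64.0% in the pre-meiotic table, and 88.0% to 95.2% in the spermatocyte libraries. Gm17629, a gene model on the same locus, was at most 0.119 FPKM.

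Eed (ENSMUSG00000030619, chromosome 7 at 97103164 to 97129493), which binds methylated lysine 27 and stimulates the enzyme, was called in no table. It had 45.7 and 38.4 FPKM at day 3, 49.0 and 41.8 FPKM in the pre-meiotic table, 15.8 and 16.9 FPKM at leptotene/zygotene and 25.2 and 31.0 FPKM at pachytene. The second condition was the lower one in both testis tables and the higher one in both spermatocyte tables. The 4 differences, -0.25, -0.23, 0.10 and 0.30 on the log2 scale, were all less than 2 times their implied errors.

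Suz12 (ENSMUSG00000017548, chromosome 11 at 79806608 to 79847625), the scaffold without which PRC2 does not assemble, was called in the day 3 and the pre-meiotic tables. It had 65.3 and 40.1 FPKM at day 3 (log2 ratio -0.70 ± 0.16), with q = 0.000172 in the authors' deposited table. In the pre-meiotic table it had 124 and 90 FPKM (-0.46 ± 0.13), with q = 0.0374 in the authors' deposited table. Markers of cell types moved with Suz12 in these pre-meiotic libraries. All 8 leptotene and zygotene markers were at lower levels in the second condition, with sums of 336 and 203 FPKM, and the authors' deposited table calls 5 of them lower, among them Sycp3 at 95.1 and 51.3 FPKM and Dmc1 at 24.1 and 12.9 FPKM. Stra8, which marks entry into meiosis, is called lower there too, at 124 and 78.6 FPKM. Of the 6 erythrocyte markers 4 are called higher, with sums of 457 and 730 FPKM, as are 2 of the 6 stroma markers, with sums of 1395 and 1758 FPKM. The part of these cells in the pre-meiotic Suz12 value was not tested. At leptotene/zygotene it had 23.6 and 12.7 FPKM (-0.88 ± 0.33, authors' deposited q = 0.171) and at pachytene 25.2 and 17.5 FPKM (-0.52 ± 0.27, authors' deposited q = 0.442), and neither was called. Gm16706, a gene model on the same locus, was below 1 FPKM in each library.

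The windows before the start sites of the 4 members called at day 3 are printed to show what they share in sequence. They come from RefSeq, GRCm38.p6, 250 bases before each start, 5′ to 3′ on the strand of the gene, with GC boxes in capitals as above.
Phc1, chr6:122340228-122340477, minus strand: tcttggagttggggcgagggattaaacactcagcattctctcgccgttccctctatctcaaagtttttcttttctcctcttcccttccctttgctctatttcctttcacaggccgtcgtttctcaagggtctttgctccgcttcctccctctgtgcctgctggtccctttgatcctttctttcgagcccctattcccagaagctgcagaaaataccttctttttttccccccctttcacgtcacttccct
Phc3, chr3:30969416-30969665, minus strand: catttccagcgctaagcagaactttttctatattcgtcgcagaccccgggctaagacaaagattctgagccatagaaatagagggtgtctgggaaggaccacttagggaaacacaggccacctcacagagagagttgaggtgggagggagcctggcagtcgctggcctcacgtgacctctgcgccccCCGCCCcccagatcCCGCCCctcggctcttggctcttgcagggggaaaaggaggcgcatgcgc
Bmi1, chr2:18676768-18677017, plus strand: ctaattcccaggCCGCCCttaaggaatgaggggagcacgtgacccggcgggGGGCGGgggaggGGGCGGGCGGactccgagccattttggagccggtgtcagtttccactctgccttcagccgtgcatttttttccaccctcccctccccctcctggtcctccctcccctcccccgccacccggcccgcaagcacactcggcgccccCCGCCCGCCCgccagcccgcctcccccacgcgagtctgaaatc
Suz12, chr11:79992856-79993105, plus strand: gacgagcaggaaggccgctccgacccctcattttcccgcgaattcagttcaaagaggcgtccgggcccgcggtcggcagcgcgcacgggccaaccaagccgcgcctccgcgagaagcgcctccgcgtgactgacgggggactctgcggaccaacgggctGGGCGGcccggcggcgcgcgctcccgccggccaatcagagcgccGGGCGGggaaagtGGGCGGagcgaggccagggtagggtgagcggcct
The Phc1 window had 8 CpG and 0 GC boxes, that of Phc3 12 and 2, that of Bmi1 21 and 6, and that of Suz12 37 and 3. All 4 lie above the median of 6 CpG in the 32851 windows of the RefSeq table. The 13 windows of the 10 members held 0 to 45 CpG with a median of 20, and 11 of the 13 were above 6.

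GC boxes were found in 8 of the 13 member windows, against 32.7% of all windows. CCAAT on either strand was found in 4, against 33.8%, and the TATA box TATAAA in 0, against 12.4%. Among motifs named for factors active in the germline or in cell division, the CRE motif TGACGTCA was in 0 of 13 (1.55% of all), the E2F motif TTTCGCGC in 0 (0.256%), the MYB motif TAACNG in 0 (19.8%) and the NRF1 motif GCATGCGC in 1, that of Phc3 (2.26%). Each motif was searched on both strands. The GC box, CRE, E2F and NRF1 motifs themselves hold CpG, so their matches and the CpG counts are not separate measures. A match or its absence describes these windows only.

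The levels across the materials come from tables that were normalized separately, so they are given side by side as deposited and again after scaling each of the 8 libraries by its median ratio over 10413 genes. The scaling factors ran from 0.602 to 1.4. As deposited, Phc1, Scmh1 and Bmi1 had all 4 spermatocyte values above all 4 testis values, against 23.1% of genes, and after scaling Ezh2 joined them, against 30.4%. As deposited, Phc2, Phc3, Ring1, Rnf2, Eed and Suz12 had all 4 below, against 45.1% of genes, and after scaling Phc3 alone did, against 33.9%. Without the leptotene/zygotene table, 3 members lay above (27.3% of genes) and 6 below (48% of genes). With both changes, 4 members lay above (35.8% of genes), Phc1, Scmh1, Bmi1 and Ezh2, and 0 below (36.8% of genes). Higher values of Phc1, Scmh1 and Bmi1 in the libraries labelled as spermatocytes thus held under these 4 treatments, which reuse the same deposited values. Read against the shares of all genes, 3 or 4 members lying above is near the background. The higher values therefore do not set the members apart from other genes. After scaling, the lower values of Phc2, Ring1, Rnf2, Eed and Suz12 did not hold, and that of Phc3 did not hold once the leptotene/zygotene table was also left out.

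Phc1 was highest at leptotene/zygotene (geometric mean of its 2 libraries 194 FPKM), then pachytene (146 FPKM), then pre-meiotic (45.1 FPKM) and day 3 (38.5 FPKM), of which the last pair overlap. The range was 5.03-fold as deposited and 11.0-fold after scaling. Scmh1 had its high values at pachytene (168 FPKM) and leptotene/zygotene (148 FPKM), which overlap, and lower ones at day 3 (74.5 FPKM) and in the pre-meiotic table (64.7 FPKM). Bmi1 peaked at leptotene/zygotene (127 FPKM), and its pachytene, pre-meiotic and day 3 means were 52.8, 42.8 and 23.8 FPKM, with no neighbours overlapping. After scaling the order for Phc1 and Bmi1 was the same, and for Scmh1 leptotene/zygotene lay above pachytene.

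Suz12 and Phc3 had their highest values in the pre-meiotic table under either scaling. Suz12 had a mean of 106 FPKM there, against 51.2 FPKM at day 3, 21.0 FPKM at pachytene and 17.3 FPKM at leptotene/zygotene, and only the last pair overlap. Its range was 6.07-fold as deposited and 3.1-fold after scaling, where day 3, leptotene/zygotene and pachytene overlap. Phc3 had means of 16.0, 9.12, 3.66 and 2.38 FPKM in the same order of tables, with no overlap as deposited, and a range of 6.51-fold that was 2.97-fold after scaling. Rnf2 ranged 5.82-fold and Ring1 4.93-fold, both with their lowest values at leptotene/zygotene, and 2.62-fold and 2.28-fold after scaling. Without the leptotene/zygotene table the range of Bmi1 on the log2 scale was 1.15 in place of 2.41, that of Rnf2 0.86 in place of 2.54 that of Eed 0.69 in place of 1.46, that of Phc1 1.92 in place of 2.33 and that of Ring1 1.59 in place of 2.30, while Suz12 kept 2.32 of 2.60 and Phc3 2.10 of 2.70. Phc2, Eed and Ezh2 ranged 2.56-fold, 2.76-fold and 1.58-fold as deposited, and 1.59-fold, 1.24-fold and 2.2-fold after scaling.

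**Figure D3:**
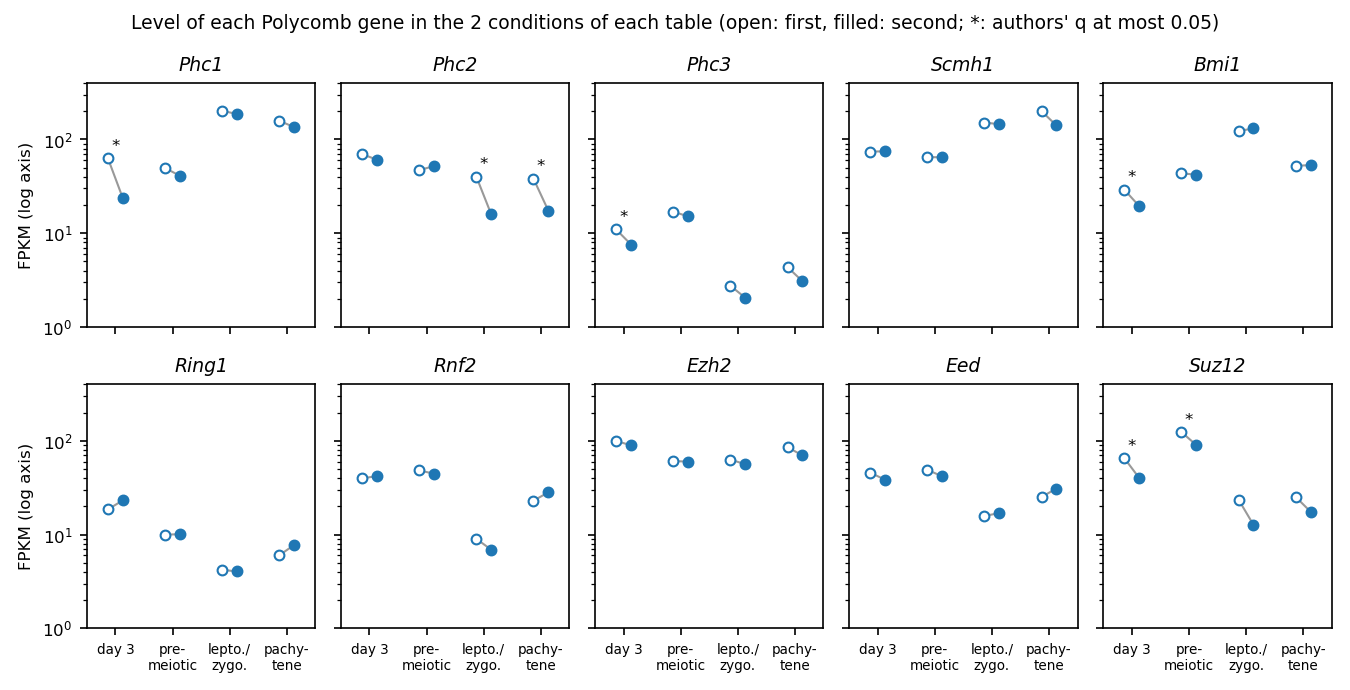
FPKM as deposited (vertical log axis) of each gene in the first (open) and second (filled) condition of the 4 tables (horizontal axis), which were normalized separately. Stars mark pairs with an authors' q of at most 0.05. Phc1 has 62.7 and 23.6 FPKM at day 3 and 202 and 187 FPKM at leptotene/zygotene, and Suz12 is highest in the pre-meiotic pair at 124 and 90 FPKM.

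For the members with the widest ranges as deposited, Phc3 and Suz12, the genes most alike in pattern over the 8 libraries were found by Pearson's r of log2(FPKM + 0.1). For Phc3 these were Smarcc1 (r = 0.997), a subunit of the BAF chromatin remodeller, Clcn6 (0.996), a chloride transporter of endosomes, and Ndor1 (0.995), an oxidoreductase. For Suz12 they were Osbpl2 (0.995), an oxysterol-binding protein, Zzef1 (0.994) and Gmeb2 (0.992), a DNA-binding protein. These r values describe 8 libraries in 4 pairs that share a normalization, and 784 of 8120 candidate genes for Phc3 and 222 of 8278 for Suz12 exceeded 0.95. Without the leptotene/zygotene table, over 6 libraries, r for the 6 named genes lay between 0.991 and 0.996. The genes were chosen by r over all 8 libraries, which include these 6, so high values here follow largely from that choice. After scaling the widest ranges were those of Bmi1, 11.6-fold, and Phc1, 11.0-fold.

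The other subunits and partners were taken from lists by role. Of 10 other chromobox and PCGF subunits of PRC1, 3 are called lower at day 3 in the authors' deposited table and 0 higher, with a list median of -0.22. Pcgf3 had 29.3 and 14.1 FPKM (log2 ratio -1.05), Cbx6 91.8 and 64.5 FPKM (-0.51), and Cbx7 5.10 and 3.10 FPKM (-0.70). Among pre-meiotic libraries Pcgf5 is called lower, at 67.0 and 50.8 FPKM (-0.40), and at leptotene/zygotene and pachytene none of the 10 is called. Large ratios without a call went both ways. Cbx8 had 16.3 and 42.8 FPKM in the pre-meiotic libraries (1.39, implied error 1.26). Pcgf3 had 2.93 and 4.78 FPKM at pachytene (0.69), and Cbx2 1.22 and 0.606 FPKM at leptotene/zygotene (-0.90). Cbx7, one of the proteins that read the PRC2 mark, had 9.84 and 7.80 FPKM in the pre-meiotic libraries, 9.92 and 10.6 FPKM at leptotene/zygotene and 16.6 and 18.7 FPKM at pachytene.

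Of 16 genes of variant PRC1 and Polycomb-like proteins, 9 are called lower at day 3 in the authors' deposited table and 0 higher, with a median of -0.59. Auts2 had 29.0 and 8.46 FPKM (log2 ratio -1.77), Mga, which binds DNA in a variant PRC1, 60.4 and 18.2 FPKM (-1.72), Usp7, a deubiquitinase, 134 and 51.0 FPKM (-1.39), and Kdm2b, which brings PRC1 to unmethylated CpG, 49.8 and 23.6 FPKM (-1.07). Bcor, Scml2, Scml4, Sfmbt1 and Sfmbt2 are the other 5. Later calls were fewer: Mga (-0.50) and Sfmbt1 (-0.35) in the pre-meiotic table, and Sfmbt2 (-0.39) at pachytene. At leptotene/zygotene E2f6, a repressor that binds E2F sites, had 21.0 and 0.985 FPKM (-4.28 ± 1.34), with q = 0.0468 in the authors' deposited table. It had 158 and 133 FPKM at day 3, 66.4 and 26.6 FPKM in the pre-meiotic table and 6.88 and 12.9 FPKM at pachytene, with implied errors of 0.38, 0.66 and 1.8 on the log2 scale.

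Of 9 other PRC2 subunits found, 1 is called lower at day 3 in the authors' deposited table, Mtf2, which binds CpG-rich DNA, at 47.6 and 28.3 FPKM (log2 ratio -0.75), and none is called elsewhere. The histone binders Rbbp4 and Rbbp7 were the most abundant of them in the testis libraries. The X-linked Rbbp7 had 254 and 283 FPKM at day 3, 204 and 198 FPKM in the pre-meiotic table, 5.39 and 6.78 FPKM at leptotene/zygotene and 6.35 and 10.9 FPKM at pachytene. Autosomal Rbbp4 had 244 and 211, 350 and 291, 61.1 and 50.8, and 137 and 170 FPKM in the same order.

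Of 11 enzymes that remove the PRC1 and PRC2 marks or their cofactors, 6 are called lower at day 3 in the authors' deposited table, and all 11 had ratios below 0, with a median of -0.65. Mysm1, which removes ubiquitin from H2A, had 20.5 and 7.94 FPKM (log2 ratio -1.36), Asxl2, a cofactor of the deubiquitinase Bap1, 12.8 and 5.32 FPKM (-1.25), and Asxl1 43.3 and 21.6 FPKM. Foxk2 (-0.88), Asxl3 (-0.85) and Uty (-0.46) are the other 3. None of the 11 is called in the other 3 tables. The day 3 counts of these lists stand beside the same 9.97% of all genes called lower, the spermatogonial markers and the locus lengths given above.

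Hox genes, long known as Polycomb targets, were counted because their RNA can be read beside that of the complexes. Of 40 listed gene IDs for 39 genes, 21 reached 1 FPKM at day 3, 16 in the pre-meiotic table, 6 at leptotene/zygotene and 3 at pachytene. Over all 36806 rows the counts were 17706, 17358, 16161 and 16154. Sertoli marker sums, given above, also differed between these materials, and the part of cell content in the Hox counts was not tested. Hoxd8 is the 1 gene called, higher in the second condition at day 3, at 47.1 and 75.7 FPKM (log2 ratio 0.68, q = 0.00812 in the authors' deposited table). Its locus overlaps those of Hoxd3 and Hoxd4, so its reads cannot be kept apart with certainty. In the pachytene libraries Hoxa4 had 57.8 and 47.2 FPKM and Hoxd8 44.2 and 45.7 FPKM.

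**Figure D4:**
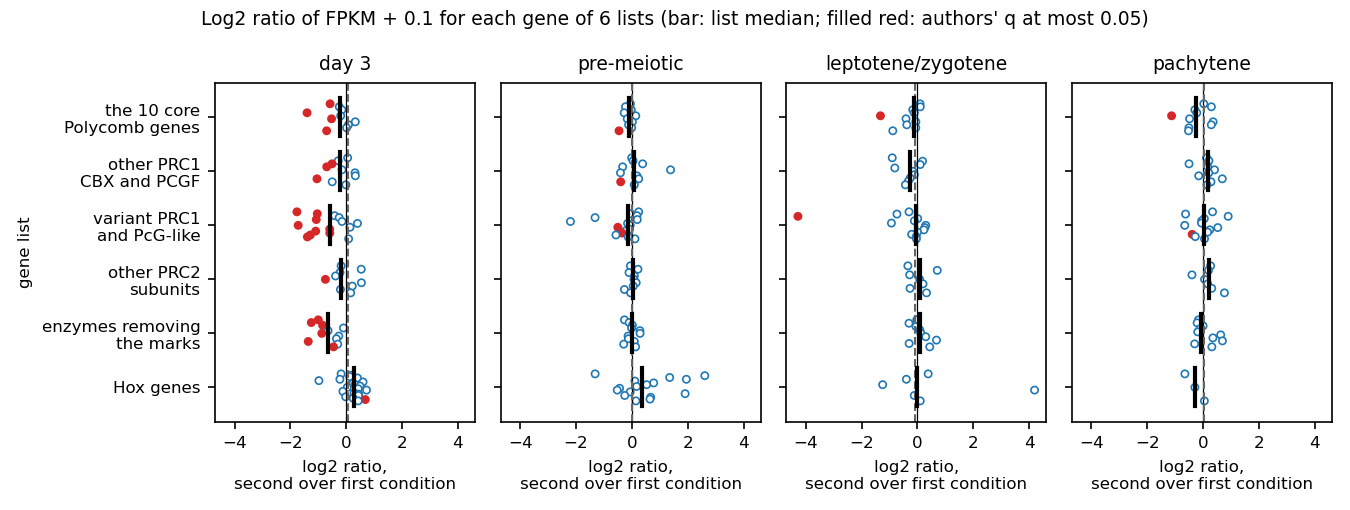
Log2 ratio of FPKM + 0.1 in the second condition relative to the first (horizontal axis) for genes at or above 1 FPKM in 6 lists (vertical axis), in each table. Filled red points have an authors' q of at most 0.05, bars are list medians and the dashed line is the median of all genes. At day 3 the list medians run from -0.65 for the enzymes that remove the marks to 0.28 for Hox genes.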

How the data were processed

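Levels of 10 Polycomb genes were read from 4 gene tables of mRNA libraries. Per the submitters' processing notes, the authors used Bowtie 0.12.7, TopHat 1.3.0, Cuffdiff, and Cufflinks 1.1.0. Per the file headers, the authors deposited FPKM for the first and second condition of each table, a log2 fold change, a test statistic, and a p-value and q-value per gene, which were copied and not recomputed. The build and annotation are not given in the sources used here. Per the labels' protocols, libraries came from Trizol RNA with a TruSeq RNA kit, with no step named that keeps the strand, so overlapping genes cannot be told apart. Depth is unknown, since no counts were used, and no interval or detection limit was formed.

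Log2 ratios were computed as log2 of the second over the first FPKM after adding 0.1 FPKM, which understates changes of low genes. The implied error is the size of the authors' log2 fold divided by that of their test statistic. Counts by fold used at least 1.5-fold and 1 FPKM in at least 1 condition. The ratio calculation was tested on simulated data. No test was made here, because each genotype and material has 1 library. The members and all gene lists were chosen with earlier results of these data known. Named genes are all 10 members, Ago4, called members of the other Polycomb, enzyme and Hox lists, and for the 2 members with the widest ranges the 3 genes most alike. Of the 2 genes of each list farthest from 0 in a table, only some are named. Other genes with values, such as markers, Rbbp4 and Pcgf2, were named from the lists for their role. Ezhip and Rhox5 were not found by symbol. Promoter windows were read from RefSeq (GRCm38.p6) by symbol, and all 10 members matched. Alternatives were other pseudocounts, folds, FPKM floors and q thresholds, centring on the table median, the authors' own log2 fold, and scaling across the 8 libraries. Python 3.11.15, pandas 2.3.3 and numpy 2.4.6 were used.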

Additional observations from a re-analysis of the deposited data

How the results depend on the processing

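Of 94 alternative values for the medians and counts, 82 kept their side or stayed within 1.5 times, and 0 changed sign. Some of these could not move. Changing the FPKM floor was without effect, since all 10 members reach 1 FPKM and every member past 1.5-fold was above 5 FPKM. Counts cannot change sign. The count of members past the fold moved with the fold itself: at least 2-fold gave 1 lower at day 3 and 1 at leptotene/zygotene, and a fold of only 25% above the other condition gave 4 lower at day 3, 1 in the pre-meiotic table, 4 at leptotene/zygotene and 4 at pachytene, and 1 higher at day 3 and 1 at pachytene. Centring on the table median gave 4 lower at day 3. With an authors' q of at most 0.01 the pre-meiotic count was 0. Scaling across the 8 libraries left 1 member with all spermatocyte values below the testis values, and scaling across 6 libraries without the leptotene/zygotene table, added after the data were seen, left 0. Centring changed the sign of 5 of the 40 log2 ratios of single members, none larger than 0.06. Each of the 40 log2 ratios of single members moved by less than its implied error under all 4 alternatives for it, which were pseudocounts of 1 and 0.01 FPKM, centring and the authors' own log2 fold. Of the stage ranges, 4 changed their highest or lowest table after scaling. Leaving out the leptotene/zygotene table changed 9, which was fixed in advance because it is the highest or lowest table of those 9. That alternative was added after the data were seen. So were the division by locus length, the background at or above 10 FPKM and the genes near Ago4. No paired analysis was possible because each genotype and material has 1 library and the tables carry no replicate numbers. The missing replicates and the unknown genotype order limit every ratio given.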

Other observations

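Phc2 and Scmh1 lie on the chromosome that carries Ago4, and genes within 5 Mb of Ago4 were counted as values. Of 152 tested genes in that window, 8 are called at leptotene/zygotene in the authors' deposited tables, and 9 of 177 at pachytene. These are 5.26% and 5.09%, against 2.48% and 1.9% of tested genes on the rest of chromosome 4. The counts in the window include Ago4 itself, called higher in both of these tables, and Phc2, called lower in both. In the pre-meiotic table the shares were 3.59% and 0.953%, and at day 3 they were 18.4% and 14.9%. Of the called genes in the window, 4 were lower and 4 higher at leptotene/zygotene, and 1 was lower and 8 higher at pachytene, where Phc2 is the 1 gene called lower.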
